A study of Homo sapiens with 18 samples.

Results

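SOX10 was overexpressed in A375 melanoma cells that carried guide RNAs against TADA2B and in A375 cells that carried a guide against GFP, and the genes described here are those whose response to SOX10 differed between these backgrounds. All 18 libraries of the series entered the comparison. The groups, of 3 libraries each, were TADA2Bsg1 with SOX10OE and TADA2Bsg1, TADA2Bsg2 with SOX10OE and TADA2Bsg2, and GFPsg with SOX10OE and GFPsg, where sg stands for a single guide RNA and OE for overexpression. The design text calls the TADA2Bsg cells knockout cells, and the labels do not say whether a line is 1 clone. A375 is an established human melanoma line, and every group shared the line and its serum-supplemented DMEM. Genes were chosen by a difference of differences, called the interaction below: the log2 change with SOX10OE in the TADA2Bsg lines, averaged over the guides, minus the log2 change with SOX10OE in GFPsg cells. It was called in 7005 of the 21060 genes tested, and a positive value means that the SOX10 effect was higher in the TADA2Bsg lines.

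TADA2B is an adaptor subunit of SAGA, a coactivator complex that acetylates histone H3 at promoters and removes ubiquitin from histone H2B, and it holds the acetyltransferase KAT2A or KAT2B in the complex. SOX10 is a transcription factor of the neural crest that keeps up the Schwann cell and melanocyte lineages, binds short A/T-rich motifs through its HMG box and switches on MITF, the central regulator of melanocytes. Melanoma cells that lose SOX10 are known to move toward an undifferentiated state rich in receptor tyrosine kinases, matrix proteins and inflammatory transcripts. The design asks whether SOX10 acted on the same genes, and in the same direction, in cells with and without a TADA2B guide.

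Total counts ran from 58573910 to 79874237 per library. Levels are CPM, counts scaled to the size of each library, and a gene was called when the adjusted p of edgeR's quasi-likelihood test was under 0.05. The labels do not say whether the 3 libraries of a group came from separate cultures, so p-values measure the spread between these libraries, which may be technical. Within groups, a chi-square of counts, divided by its degrees of freedom, was highest for TADA2Bsg2 replicate 2, at 11.8 and 10.4 against the other libraries of its group, which differed from each other by 4.6. Without that library, the interaction was called in 4033 genes upward and 3239 downward, against 3818 and 3187 with it. Mitochondrially encoded transcripts took 0.732% to 1.455% of the counts.

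The guides gave different amounts of SOX10 to start from. SOX10 stood at 281, 286 and 307 CPM in TADA2Bsg1 with SOX10OE and at 248, 251 and 240 CPM in TADA2Bsg2 with SOX10OE, against 87.0, 82.6 and 81.2 CPM in TADA2Bsg1 and 46.1, 39.9 and 44.1 CPM in TADA2Bsg2. In GFPsg with SOX10OE it stood at 451, 453 and 454 CPM, against 358, 341 and 364 CPM in GFPsg. The SOX10 transcript therefore rose in all 3 backgrounds with no overlap, 4.44-fold in the TADA2Bsg lines (log2 change 2.15, SE 0.0271) and 1.28-fold in GFPsg cells (log2 change 0.35, SE 0.0364), and the interaction at SOX10 itself was 1.80 (SE 0.0454, adjusted p = 7.34e-25). Reads of the introduced and the endogenous SOX10 cannot be told apart at this gene. Background and size of the SOX10 rise cannot be told apart either in any result below. TADA2B, the targeted gene, was at 23.9, 26.8 and 25.3 CPM in TADA2Bsg1 with SOX10OE, against 26.1, 25.6 and 26.4 CPM in TADA2Bsg1. It was at 27.5, 25.7 and 27.6 CPM in TADA2Bsg2 with SOX10OE against 28.6, 27.5 and 30.2 CPM in TADA2Bsg2, and at 30.7, 30.7 and 31.7 CPM in GFPsg with SOX10OE against 32.8, 32.2 and 32.5 CPM in GFPsg. Its transcript was thus lower in TADA2Bsg than in GFPsg libraries without overlap at either SOX10 state, by a small amount (log2 difference −0.25 without SOX10OE, SE 0.0404), and its interaction was −0.001 (SE 0.0571, adjusted p = 0.997). Guides can inactivate a gene whose transcript is still counted, so these values say little about the protein.

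SOX10 changed 11842 of 21060 genes tested in the TADA2Bsg lines (56.2% of all, 5920 or 28.1% higher and 5922 or 28.1% lower) and 7245 genes in GFPsg cells (34.4%, 3633 or 17.3% higher and 3612 or 17.2% lower). The change was at least 2-fold for 1486 raised and 1032 lowered genes in the TADA2Bsg lines, and for 771 raised and 589 lowered genes in GFPsg cells. The interaction was called in 7005 genes, or 33.3% of those tested, 3818 of them higher (18.1%) and 3187 lower (15.1%). It reached 2-fold in 829 genes upward and 425 downward. In 4549 of the called genes (64.9%) each guide taken alone gave a called interaction of the same sign, where the interaction was called in 25.2% of all genes with guide 1 (14.0% higher, 11.2% lower) and in 32.1% with guide 2 (17.5% higher, 14.5% lower). The SOX10 effect itself differed between guide 2 and guide 1 in 2.51% of genes (1.77% higher with guide 2, 0.741% lower). Without SOX10OE, the TADA2Bsg lines differed from GFPsg cells in 58.1% of genes (28.6% higher, 29.5% lower). The SOX10 effects in the TADA2Bsg lines and in GFPsg cells share no library, and across all genes they correlated at r = 0.621 (Spearman 0.423). The effects with guide 1 and with guide 2 correlated at r = 0.887 (Spearman 0.752). Genes are not independent replicates, and these values are a description.

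Of the 5577 genes that SOX10 changed in both backgrounds, 47.1% of the calls in the TADA2Bsg lines and 77.0% of those in GFPsg cells, 4648 changed in the same direction and 929 in opposite directions. All 929 also had a called interaction, and they made up 4.41% of the genes tested. SOX10 raised 541 of them in the TADA2Bsg lines and lowered them in GFPsg cells, and it did the reverse at 388. Most of these changes were small: the median of the smaller of the 2 absolute log2 effects was 0.152, and 82 genes changed at least 1.5-fold in both backgrounds, 23 of them at least 2-fold. With each guide alone the SOX10 effect was called in the same direction for 543 of the 929. A further 2870 genes (13.6%) had a called interaction and a SOX10 effect called in the TADA2Bsg lines but not in GFPsg cells, 1352 higher and 1518 lower. The converse class, called in GFPsg cells but not in the TADA2Bsg lines, held 1073 genes (5.09%), 460 higher and 613 lower. A missed call does not show that the effect is zero. The 95% interval of the effect in the other background lay within 1.5-fold either way for 2352 of the 2870 genes and for 982 of the 1073. In 1962 genes (9.32%) SOX10 acted in the same direction but by a different amount, more strongly in the TADA2Bsg lines at 1253 and in GFPsg cells at 709. The last 171 genes (0.812%) had a called interaction and no called SOX10 effect in either background.

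**Figure D1:**
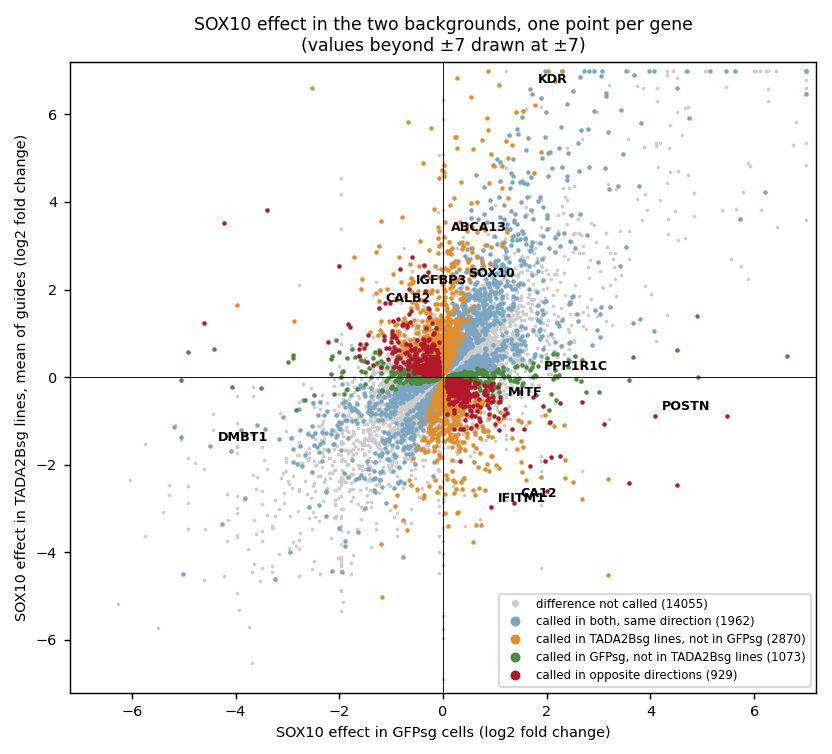
Log2 fold change with SOX10OE in the TADA2Bsg lines (vertical axis, mean of the guides) against that in GFPsg cells (horizontal axis), with 1 point per gene and colours for the classes; the 171 genes called in neither background are not drawn. The 929 genes called in opposite directions fill the upper left and lower right, mostly close to the origin; CALB2 and IGFBP3 lie upper left and POSTN, CA12, IFITM1 and MITF lower right.

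The named genes that SOX10 raised in the TADA2Bsg lines and lowered in GFPsg cells included a calcium-binding protein, a ubiquitin ligase and 2 genes of interleukin signalling. CALB2 (ENSG00000172137; hg38 chromosome 16, 71358713 to 71390438), which encodes the calcium buffer calretinin, stood at 38.3, 39.2 and 43.1 CPM in TADA2Bsg1 with SOX10OE, against 17.2, 16.8 and 16.1 CPM in TADA2Bsg1. With the other guide CALB2 was at 52.2, 53.4 and 53.2 CPM in TADA2Bsg2 with SOX10OE, against 13.7, 15.0 and 14.1 CPM in TADA2Bsg2. The GFPsg libraries had 7.07, 7.77 and 8.12 CPM with SOX10OE, against 18.2, 18.3 and 17.8 CPM in GFPsg. All 6 CALB2 values with SOX10OE lay above all 6 without it in the TADA2Bsg lines, and the reverse held in GFPsg cells. CALB2 rose 2.99-fold in the TADA2Bsg lines (log2 change 1.58, SE 0.0361) and fell 2.37-fold in GFPsg cells (log2 change −1.24, SE 0.0592), an interaction of 2.83 (SE 0.0693, adjusted p = 2.13e-30).

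HECW2 (chromosome 2), a HECT-type ubiquitin ligase, showed the same crossing with a larger rise under guide 2. It averaged 6.44 ± 0.687 CPM in TADA2Bsg1 with SOX10OE and 4.52 ± 0.245 CPM in TADA2Bsg1 (SD, n = 3 each), and 13.0 ± 1.15 CPM in TADA2Bsg2 with SOX10OE and 3.79 ± 0.353 CPM in TADA2Bsg2. In GFPsg with SOX10OE it averaged 0.461 ± 0.0846 CPM and in GFPsg 1.62 ± 0.171 CPM, a fall of 3.49-fold. IL1A, the alarm cytokine interleukin-1 alpha, stood at 7.70, 6.90 and 7.37 CPM in TADA2Bsg1 with SOX10OE against 4.00, 3.99 and 3.80 CPM in TADA2Bsg1, and at 7.07, 6.74 and 6.56 CPM in TADA2Bsg2 with SOX10OE against 2.35, 2.15 and 1.88 CPM in TADA2Bsg2. IL1A was at 2.50, 2.20 and 2.49 CPM in GFPsg with SOX10OE, against 4.68, 4.40 and 4.95 CPM in GFPsg. No value of IL1A overlapped between the groups with and without SOX10OE in any background, and its interaction was 2.25 (SE 0.125, adjusted p = 1.59e-18). IL18R1, the ligand-binding chain of the interleukin-18 receptor, had log2 changes of 0.98 (SE 0.0969) in the TADA2Bsg lines and −0.98 (SE 0.155) in GFPsg cells. TDRD6, a Tudor-domain protein of germ cell granules, had 1.05 (SE 0.127) and −0.98 (SE 0.168). KLK6, a secreted serine protease of the kallikrein family, averaged 3.34 and 3.37 CPM in the TADA2Bsg lines with SOX10OE against 2.14 and 1.39 CPM without, and 0.0744 CPM in GFPsg with SOX10OE against 0.205 CPM in GFPsg, a level of few counts.

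The named genes that SOX10 lowered in the TADA2Bsg lines and raised in GFPsg cells were PAEP, FAP, CA12, SNAI2, ATP8B1 and SRGN. CA12 (ENSG00000074410; chromosome 15, 63321378 to 63382161), a carbonic anhydrase of the plasma membrane, was at 0.349, 0.260 and 0.579 CPM in TADA2Bsg1 with SOX10OE against 2.42, 3.48 and 2.67 CPM in TADA2Bsg1. With guide 2 it was at 0.256, 0.533 and 0.279 CPM with SOX10OE against 2.61, 2.64 and 2.66 CPM in TADA2Bsg2. In GFPsg with SOX10OE it was at 0.928, 0.510 and 0.735 CPM against 0.358, 0.208 and 0.277 CPM in GFPsg. The values did not overlap in any background. CA12 fell 7.28-fold in the TADA2Bsg lines (log2 change −2.86, SE 0.180) and rose 2.57-fold in GFPsg cells (1.36, SE 0.309), with an interaction of −4.23 (SE 0.358, adjusted p = 6.49e-13).

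FAP, the fibroblast activation protease, averaged 0.427 and 0.298 CPM in the TADA2Bsg1 and TADA2Bsg2 lines with SOX10OE, against 1.43 and 1.47 CPM without it, and 0.531 CPM in GFPsg with SOX10OE against 0.165 CPM in GFPsg. PAEP, the secreted lipocalin glycodelin, moved likewise, with log2 changes of −1.91 (SE 0.138) in the TADA2Bsg lines and 1.96 (SE 0.349) in GFPsg cells. PAEP averaged 0.452 CPM in GFPsg with SOX10OE against 0.116 CPM in GFPsg, a level of few counts. SRGN, the proteoglycan of secretory granules, was at 2.83 to 3.96 CPM in the TADA2Bsg lines with SOX10OE and at 6.64 to 8.70 CPM without, and at 2.77 to 3.25 CPM in GFPsg with SOX10OE and 1.41 to 1.71 CPM in GFPsg. SNAI2, the neural crest and EMT transcription factor SLUG, averaged 0.965 and 0.733 CPM in the TADA2Bsg lines with SOX10OE against 1.80 and 2.03 CPM without, and 3.16 ± 0.608 CPM in GFPsg with SOX10OE against 1.27 ± 0.155 CPM in GFPsg. ATP8B1, a phospholipid flippase, was the least certain of these genes, with an adjusted p of 0.0479 for its rise in GFPsg cells. That rise was also one of few counts, at 0.235 CPM in GFPsg with SOX10OE against 0.110 CPM in GFPsg. For PAEP, FAP, CA12, ATP8B1 and SRGN the TADA2Bsg lines without SOX10OE held the highest level of the 6 groups, whereas SNAI2 was highest in GFPsg with SOX10OE.

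**Figure D2:**
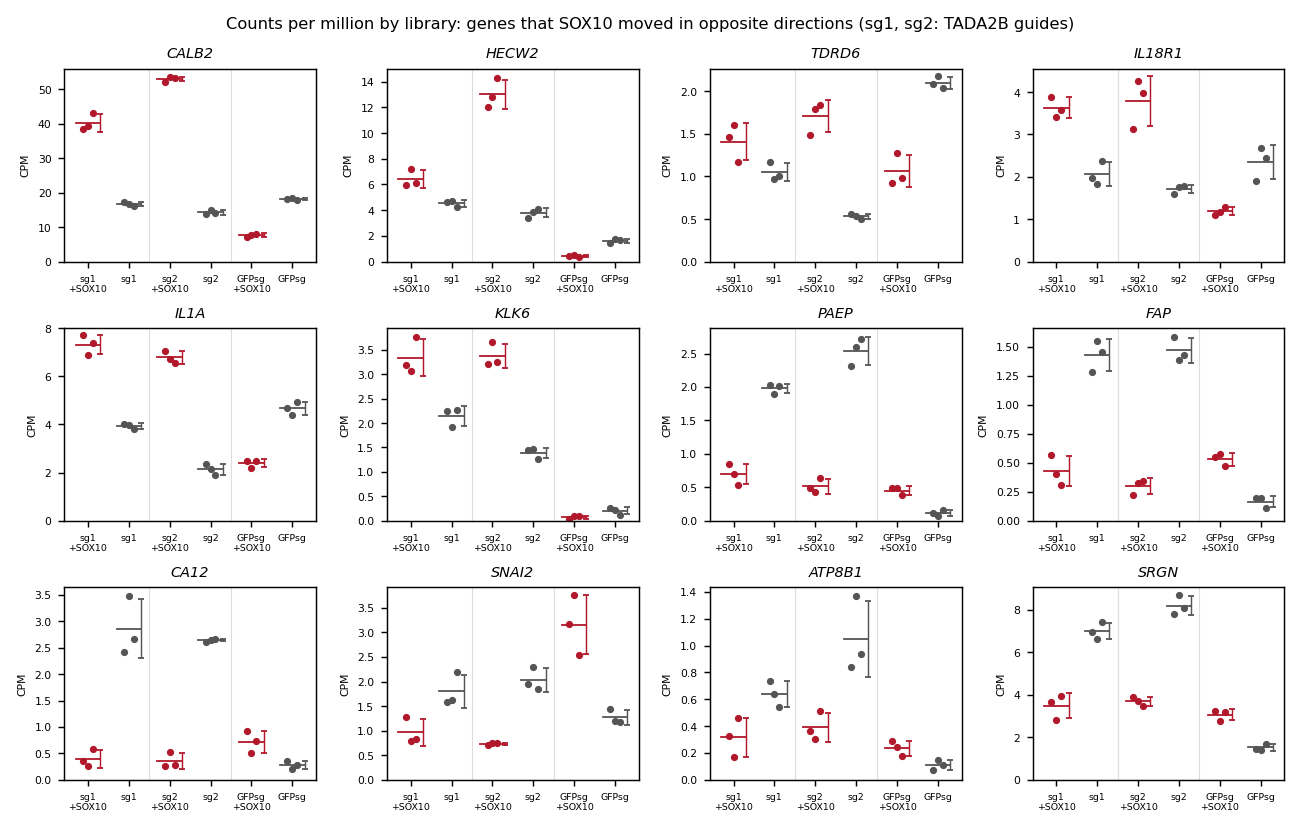
CPM by library for the 12 named genes that SOX10 moved in opposite directions, with SOX10OE groups in red and groups without it in grey, points for libraries, lines for means and bars for SD. CALB2 to KLK6 are higher with SOX10OE under both guides and lower with it in GFPsg cells; PAEP to SRGN show the reverse.

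Promoters of genes with opposite responses are shown because SOX10 binds DNA directly, through motifs that share the core ACAAAG or ACAATG. RefSeq promoters (GRCh38.p14, 250 bases before to 50 after the start) were held for 7 of the 12 genes above, and 1 of the 7, KLK6, held such a motif on either strand. To this were added, after their values were seen, the promoters of MITF and PARP9, which had the smallest interaction p among the motif-bearing promoters of the opposite-class genes named from the gene lists (3 of 20 promoters held the motif). MITF (chromosome 3, 69739435 to 69968337) was at 66.9, 64.9 and 60.7 CPM in TADA2Bsg1 with SOX10OE against 84.2, 82.4 and 86.4 CPM in TADA2Bsg1, and at 59, 54.5 and 55.5 CPM in TADA2Bsg2 with SOX10OE against 90.0, 90.8 and 95.4 CPM in TADA2Bsg2. MITF was at 87.5, 84.6 and 84.3 CPM in GFPsg with SOX10OE, against 39.1 to 40.1 CPM in GFPsg. MITF thus fell in the TADA2Bsg lines (log2 change −0.55, SE 0.0257) and rose 2.15-fold in GFPsg cells (1.11, SE 0.0377), with no overlap in any background, and its interaction was −1.66 (SE 0.0456, adjusted p = 1.35e-28). MITF has several promoters, and the table holds a single one. In the sequences below, capitals mark the motif, as printed or as its reverse complement.
KLK6, chr19:50969542-50969841, minus strand: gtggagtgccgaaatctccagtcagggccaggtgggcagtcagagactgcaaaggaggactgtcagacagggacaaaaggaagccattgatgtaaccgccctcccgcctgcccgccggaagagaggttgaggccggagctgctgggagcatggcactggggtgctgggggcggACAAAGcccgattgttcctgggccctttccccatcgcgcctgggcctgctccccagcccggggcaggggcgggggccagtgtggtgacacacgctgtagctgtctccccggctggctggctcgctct
MITF, chr3:69739214-69739513, plus strand: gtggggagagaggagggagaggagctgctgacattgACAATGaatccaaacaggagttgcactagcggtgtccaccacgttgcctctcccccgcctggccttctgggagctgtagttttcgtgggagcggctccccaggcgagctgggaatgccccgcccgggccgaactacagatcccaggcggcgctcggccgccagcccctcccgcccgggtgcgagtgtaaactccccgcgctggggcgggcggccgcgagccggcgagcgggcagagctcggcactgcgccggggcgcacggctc
PARP9, chr3:122564735-122565034, minus strand: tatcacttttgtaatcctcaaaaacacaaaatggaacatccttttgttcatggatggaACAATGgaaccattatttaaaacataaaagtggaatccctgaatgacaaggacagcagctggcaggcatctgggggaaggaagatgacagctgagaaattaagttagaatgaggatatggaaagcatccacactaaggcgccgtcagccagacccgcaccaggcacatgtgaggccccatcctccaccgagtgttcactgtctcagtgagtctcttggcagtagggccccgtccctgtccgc
The motif began 77 bases before the start in KLK6, 214 before it in MITF and 192 before it in PARP9. It stood in 24.6% of all 27305 RefSeq promoters and in 17.4% of the 12969 promoters of genes tested. Among genes that SOX10 raised in the TADA2Bsg lines and lowered in GFPsg cells, 17.9% of 402 promoters held it, and among those with the reverse pattern 13.4% of 299. Genes raised in the TADA2Bsg lines and not called in GFPsg cells had it in 20.5% of 963 promoters, and those lowered there in 14.3% of 1149. The shares were 15.0% of 347 and 19.6% of 428 for genes raised and lowered in GFPsg cells and not called in the TADA2Bsg lines. A match of letters is no binding site.

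A second set of genes answered to SOX10 in the TADA2Bsg lines with no called change in GFPsg cells. ABCA13 (chromosome 7, 48171458 to 48647496), a large lipid transporter, was at 24.1, 25.5 and 24.8 CPM in TADA2Bsg1 with SOX10OE against 3.29, 3.05 and 3.65 CPM in TADA2Bsg1, and at 37.2, 35.8 and 39.5 CPM in TADA2Bsg2 with SOX10OE against 3.57, 3.08 and 3.16 CPM in TADA2Bsg2. It was at 2.58, 2.34 and 1.74 CPM in GFPsg with SOX10OE, and in GFPsg at 1.94, 2.40 and 2.24 CPM. ABCA13 rose 9.21-fold in the TADA2Bsg lines, and in GFPsg cells, where its groups overlapped, the log2 change was 0.02 with a 95% interval of −0.22 to 0.26. Its level with SOX10OE in the TADA2Bsg lines was far above any GFPsg library.

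FGF13 and OPRD1 showed another arrangement of levels. FGF13, an intracellular member of the fibroblast growth factor family that binds sodium channels, averaged 28.8 and 23.9 CPM in the TADA2Bsg lines with SOX10OE against 4.89 and 2.49 CPM without, and 36.6 ± 0.635 CPM in GFPsg with SOX10OE against 33.6 ± 1.10 CPM in GFPsg. Its log2 change was 2.91 (SE 0.0516) in the TADA2Bsg lines and 0.12 (95% interval 0.01 to 0.23, adjusted p = 0.0744) in GFPsg cells. OPRD1, the delta opioid receptor, averaged 37.1 ± 0.152 and 46.4 ± 10.5 CPM in the TADA2Bsg lines with SOX10OE against 7.89 and 4.45 CPM without, and 40.1 CPM in GFPsg with SOX10OE against 35.9 CPM in GFPsg. At both genes the TADA2Bsg lines without SOX10OE stood apart as low, while the GFPsg groups lay close to each other at a high level, with values of GFPsg with SOX10OE above those of GFPsg but no call. SPTBN5, a beta spectrin, and BCL2L15, a BCL2 family member, rose by log2 changes of 2.48 (SE 0.0974) and 2.50 (SE 0.198) in the TADA2Bsg lines, with −0.05 and 0.04 in GFPsg cells.

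GDF15, a stress-induced hormone of the TGF-beta superfamily, led the named genes lowered in the TADA2Bsg lines alone. It was at 1.24, 1.12 and 1.43 CPM in TADA2Bsg1 with SOX10OE against 8.75, 8.20 and 8.28 CPM in TADA2Bsg1, and at 1.71, 1.98 and 1.64 CPM in TADA2Bsg2 with SOX10OE against 9.12, 7.86 and 8.90 CPM in TADA2Bsg2. GFPsg with SOX10OE had 0.955, 0.967 and 0.941 CPM of GDF15, and GFPsg had 1.09, 1.11 and 0.769 CPM. GDF15 fell 5.68-fold in the TADA2Bsg lines, to levels near those of GFPsg cells, where the log2 change was −0.05 (95% interval −0.38 to 0.27). AQP1, a water channel, fell by a log2 change of 1.82 (SE 0.144) in the TADA2Bsg lines, again with overlapping GFPsg groups. CNIH3, an AMPA receptor auxiliary protein, and COL15A1, a basement membrane collagen, had log2 changes of −1.47 (SE 0.107) and −1.39 (SE 0.111) in the TADA2Bsg lines and of 0.22 and 0.17 in GFPsg cells. PRRX1, a homeobox factor of mesenchyme, differed in its levels: it averaged 23.2 and 10.7 CPM in the TADA2Bsg lines with SOX10OE against 51.1 and 35.0 CPM without, while GFPsg with SOX10OE had 136 ± 5.37 CPM and GFPsg 127 ± 2.74 CPM. The fall of PRRX1 in the TADA2Bsg lines therefore went further from the GFPsg level, whereas that of GDF15 went toward it.

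Of the genes called in GFPsg cells alone, the 10 taken for the size of their interaction averaged at most 8.45 CPM in any group, while members of the lists below, such as CRIM1, stood higher (417 CPM in GFPsg). PPP1R1C, an inhibitory subunit of protein phosphatase 1, was at 5.44 to 6.39 CPM in the TADA2Bsg lines with SOX10OE and at 4.88 to 6.92 CPM without. PPP1R1C was at 3.00, 2.77 and 2.91 CPM in GFPsg with SOX10OE, against 0.865, 0.816 and 0.815 CPM in GFPsg. PPP1R1C rose 3.47-fold in GFPsg cells (log2 change 1.80, SE 0.145, adjusted p = 3.16e-14), and in the TADA2Bsg lines its log2 change was 0.03 with a 95% interval of −0.11 to 0.18. PIWIL2, a PIWI protein of the germ line, and CT55, a cancer-testis antigen, rose by log2 changes of 2.20 (SE 0.460) and 1.47 (SE 0.267) in GFPsg cells. There PIWIL2 averaged 0.306 CPM with SOX10OE against 0.0647 CPM in GFPsg, a level of few counts. CT55 averaged 0.85 CPM in GFPsg with SOX10OE against 0.306 CPM in GFPsg. Both averaged 1.34 to 1.5 CPM in all 4 TADA2Bsg groups, above both GFPsg groups. LBH, a transcriptional cofactor of limb bud and heart, averaged 1.61 and 2.03 CPM in the TADA2Bsg lines with SOX10OE and 1.79 and 2.19 CPM without, against 2.60 ± 0.385 CPM in GFPsg with SOX10OE and 0.897 ± 0.0431 CPM in GFPsg. PCSK6, a proprotein convertase, likewise rose in GFPsg cells (log2 change 1.67, SE 0.213).

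IKZF2, the zinc finger factor Helios, was lowered in GFPsg cells alone. It was at 3.66, 3.64 and 3.74 CPM in GFPsg with SOX10OE against 9.05, 7.61 and 8.68 CPM in GFPsg, a fall of 2.30-fold (log2 change −1.20, SE 0.113, adjusted p = 9.95e-12). In the TADA2Bsg lines it averaged 3.49 and 3.31 CPM with SOX10OE and 3.91 and 2.58 CPM without, and the log2 change was 0.10 (95% interval −0.08 to 0.27). POU2F3, the POU factor of tuft cells, fell to 0.198 CPM in GFPsg with SOX10OE, against 0.525 CPM in GFPsg (log2 change −1.39, SE 0.265), with 0.01 (SE 0.0951) in the TADA2Bsg lines, whose levels of 1.68 to 3.52 CPM lay above both GFPsg groups. The secreted proteases MMP19 and ADAMTS16 had log2 changes of −0.99 (SE 0.194) and −1.0 (SE 0.128) in GFPsg cells and 0.14 and 0.13 in the TADA2Bsg lines. FAM180A had −1.20 (SE 0.285) and 0.23. For IKZF2, MMP19, ADAMTS16 and FAM180A the values of TADA2Bsg2 with SOX10OE lay above those of TADA2Bsg2 without overlap, while those of guide 1 overlapped.

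**Figure D3:**
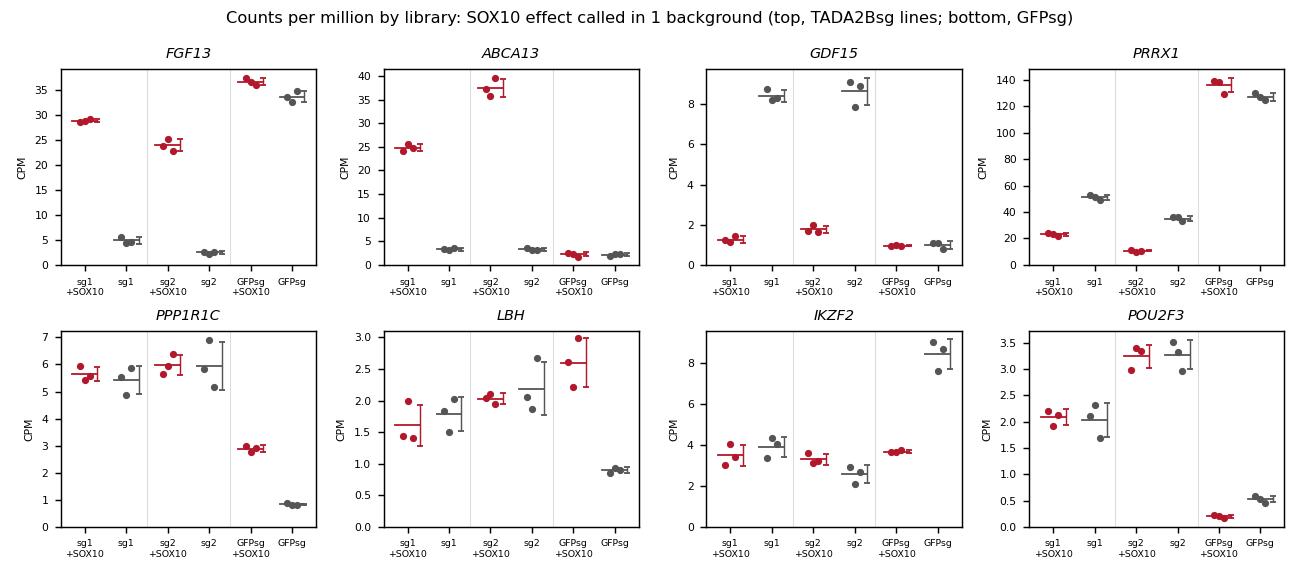
CPM by library for 8 genes with a SOX10 effect called in a single background, drawn as in the plot of the opposite genes, with genes called in the TADA2Bsg lines on top and in GFPsg cells below. FGF13, ABCA13, GDF15 and PRRX1 separate by SOX10OE under both guides; PPP1R1C, LBH, IKZF2 and POU2F3 separate by it in GFPsg cells.

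Genes moved the same way in both backgrounds by different amounts included some that were almost off in the TADA2Bsg lines without SOX10OE. KDR, the VEGF receptor 2, averaged 27.7 ± 1.15 and 33.1 ± 0.0627 CPM in the TADA2Bsg lines with SOX10OE against 0.395 ± 0.0909 and 0.254 ± 0.0460 CPM without, and 10.5 ± 0.317 CPM in GFPsg with SOX10OE against 3.26 ± 0.497 CPM in GFPsg. Its interaction was 4.90 (SE 0.150, adjusted p = 1e-28). FAT3, an atypical cadherin, averaged 28.2 and 28.8 CPM with SOX10OE in the TADA2Bsg lines against 0.683 and 0.316 CPM without, and 52.9 CPM in GFPsg with SOX10OE against 18.5 CPM in GFPsg. On the CPM scale the rise of FAT3 was smaller in the TADA2Bsg lines than in GFPsg cells, though its fold was larger. Of all 7005 called interactions, 6670 (95.2%) kept their sign when differences of CPM were taken in place of log2 changes, a check added after the data were seen. Where the effects point in opposite directions the sign is kept almost by construction, so the share over all genes says little. In the same-direction class, the sign was kept at 1045 of the 1253 genes with the larger log2 change in the TADA2Bsg lines. It was kept at 591 of the 709 with the larger one in GFPsg cells. ITIH6, an inter-alpha-trypsin inhibitor heavy chain, had an interaction of 4.49 (SE 0.329). It averaged 6.06 and 5.3 CPM in the TADA2Bsg lines with SOX10OE against 0.0958 and 0.0449 CPM without. In GFPsg with SOX10OE it averaged 7.96 CPM, against 2.15 CPM in GFPsg. Averaged over the guides, the rise of ITIH6 in CPM was thus slightly smaller in the TADA2Bsg lines, and its sign was not kept. Larger log2 changes in GFPsg cells were seen at DMBT1 and MAP2. DMBT1, a scavenger receptor protein of mucosa, fell by a log2 change of 1.57 (SE 0.0549) in the TADA2Bsg lines and 4.49 (SE 0.378) in GFPsg cells. MAP2, the dendritic microtubule protein, rose by 1.33 (SE 0.119) and 3.79 (SE 0.390). INSYN2B resembled DMBT1, with −1.30 (SE 0.0840) and −3.81 (SE 0.317). DMBT1 averaged 7.2 and 8.18 CPM in the TADA2Bsg lines with SOX10OE against 22.9 and 22.7 CPM without. In GFPsg with SOX10OE it averaged 0.0738 CPM, against 1.7 CPM in GFPsg, so its fall in CPM was larger in the TADA2Bsg lines. MAP2 averaged 0.0856 CPM in GFPsg and INSYN2B 0.107 CPM in GFPsg with SOX10OE, which are levels of few counts. MAP2 rose from there to 1.21 CPM, and from 1.21 and 1.04 to 2.40 and 3.31 CPM in the TADA2Bsg lines. INSYN2B fell from 1.52 CPM in GFPsg, and from 5.57 and 6.39 to 1.98 and 2.97 CPM in the TADA2Bsg lines. In CPM both changes were therefore larger in the TADA2Bsg lines, so the sign was not kept for these genes either.

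Genes of S phase moved apart as a group. Of 27 tested, 22 had a higher SOX10 effect in the TADA2Bsg lines and 0 a lower one, where 18.1% and 15.1% of all genes were called in these directions, and the median interaction was 0.326 against 0.0151 over all genes. SOX10 raised 17 and lowered 1 in the TADA2Bsg lines (median log2 change 0.0884), where 28.1% of all genes were called each way. It raised 0 and lowered 22 in GFPsg cells (median −0.201), where 17.3% and 17.2% of all genes were called. In all, 13 of the 27 were called in opposite directions, a class that held 4.41% of all genes. E2F1 and CCNE2, a transcription factor and a cyclin that open S phase, had log2 changes of 0.44 and 0.43 in the TADA2Bsg lines and of −0.36 and −0.51 in GFPsg cells. CCNE2 was at 34.5, 33.8 and 34.2 CPM in TADA2Bsg1 with SOX10OE against 25.0, 25.5 and 25.9 CPM in TADA2Bsg1, and at 31.5, 32.9 and 32.4 CPM in TADA2Bsg2 with SOX10OE against 23.4, 23.6 and 24.8 CPM in TADA2Bsg2. CCNE2 was at 24.4, 25.3 and 27.0 CPM in GFPsg with SOX10OE, against 35.1, 36.8 and 37.1 CPM in GFPsg. CCNE2 did not overlap between groups with and without SOX10OE in any background, and it was highest in GFPsg. MCM6, a subunit of the replicative helicase, had log2 changes of 0.17 in the TADA2Bsg lines and −0.39 in GFPsg cells and an interaction of 0.57 (SE 0.0352, adjusted p = 7.3e-17), and MCM5, MCM3, CDC6, CDC45, GINS2, POLE, TK1, SLBP, RRM1 and RRM2 were the other members called in opposite directions. UHRF1, which guides DNA methylation at replication forks, and PCNA, the sliding clamp, fell in GFPsg cells (−0.56 and −0.31) and were not called in the TADA2Bsg lines (0.04 and 0.02). No member changed by more than 0.56 on the log2 scale in either background. SLBP values overlapped under guide 2.

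Of 26 G2 and M phase genes tested, SOX10 lowered 21 and raised 2 in the TADA2Bsg lines, and lowered 18 and raised 1 in GFPsg cells, with medians of −0.153 and −0.144, where 28.1% of all genes were lowered in the TADA2Bsg lines and 17.2% in GFPsg cells. The interaction was called higher for 5 and lower for 7, against 18.1% and 15.1% of all genes. CDK1, the mitotic kinase, was the member called in opposite directions, at −0.11 in the TADA2Bsg lines and 0.15 in GFPsg cells. UBE2C, the ubiquitin-conjugating enzyme of the anaphase-promoting complex, fell in the TADA2Bsg lines (−0.26) and was not called in GFPsg cells (0.05). AURKA, the spindle kinase, fell in both, by 0.36 and 0.15.

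Of 41 interferon-stimulated genes tested, the interaction was lower for 23, higher for 2 and not called for the rest, where 15.1% of all genes were called lower and 18.1% higher, and the median was −0.519 against 0.0151 over all genes. SOX10 lowered 31 and raised 3 in the TADA2Bsg lines (median −0.427; 28.1% of all genes each way), and raised 13 and lowered 5 in GFPsg cells (median 0.145; 17.3% and 17.2% of all genes). In opposite directions were called 11 members (4.41% of all genes), and a further 11 in the TADA2Bsg lines alone (13.6% of all genes). IFITM1, which blocks virus entry, stood at 0.504, 0.468 and 0.377 CPM in TADA2Bsg1 with SOX10OE against 3.42, 4.14 and 3.19 CPM in TADA2Bsg1, and at 0.573, 0.451 and 0.460 CPM in TADA2Bsg2 with SOX10OE against 3.93, 4.28 and 3.37 CPM in TADA2Bsg2. IFITM1 stood at 1.27, 1.22 and 1.43 CPM in GFPsg with SOX10OE, against 0.656, 0.682 and 0.722 CPM in GFPsg. No values overlapped, and the interaction of IFITM1 was −3.89 (SE 0.220, adjusted p = 1.63e-18). IFI6, a mitochondrial survival protein, averaged 28.2 and 30.9 CPM in the TADA2Bsg lines with SOX10OE against 50.1 and 51.5 CPM without, and 12.0 CPM in GFPsg with SOX10OE against 8.20 CPM in GFPsg.

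PARP9, whose promoter is printed above, moved less in the TADA2Bsg lines than in GFPsg cells. It was at 42.0 ± 2.76 and 42.8 ± 2.16 CPM in the TADA2Bsg lines with SOX10OE against 45.7 ± 0.995 and 50.4 ± 4.84 CPM without (log2 change −0.18, SE 0.0369), and rose to 31.0 ± 1.0 CPM in GFPsg with SOX10OE, against 18.0 ± 0.438 CPM in GFPsg (0.79, SE 0.0577). BST2, the tether of budding virus, fell by a log2 change of 2.38 (SE 0.121) in the TADA2Bsg lines and was not called in GFPsg cells (0.24). IFI27, IFI44L, IFIT1, IFIT3 and MX1 also fell in the TADA2Bsg lines without a call in GFPsg cells. IFIH1, HERC6, IFIT2, IFITM2, IFITM3 and ISG15 were also called in opposite directions, IFIH1 at −0.28 in the TADA2Bsg lines and 0.46 in GFPsg cells. ISG20 and GBP2 were the 2 members with a higher interaction, and OASL fell in both backgrounds (−2.86 and −3.07, interaction not called). The antigen presentation list split between genes of the class I and class II pathways. Of its 26 members tested, 13 had a lower and 10 a higher interaction, where 15.1% and 18.1% of all genes did. The 13 members with a lower interaction included HLA-B, HLA-C, HLA-F, B2M, TAPBP, PSMB8, PSMB9, NLRC5, ERAP1, ERAP2 and the peptide transporter genes TAP1 and TAP2, which serve class I. The 10 members with a higher one were CIITA, the class II activator, CD74, the invariant chain, and HLA-DRA, HLA-DRB1, HLA-DQA1, HLA-DQB1, HLA-DMA, HLA-DMB, HLA-DOA and HLA-DPA1. HLA-E, PSMB10 and HLA-DPB1 made up the rest of the 26 and were not called. HLA-DRA averaged 359 and 175 CPM in the TADA2Bsg lines with SOX10OE against 121 and 55.9 CPM without, and 780 CPM in GFPsg with SOX10OE against 525 CPM in GFPsg, so its larger fold in the TADA2Bsg lines went with a smaller rise in CPM. HLA genes are near-identical relatives, and the assignment of their reads is uncertain.

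**Figure D4:**
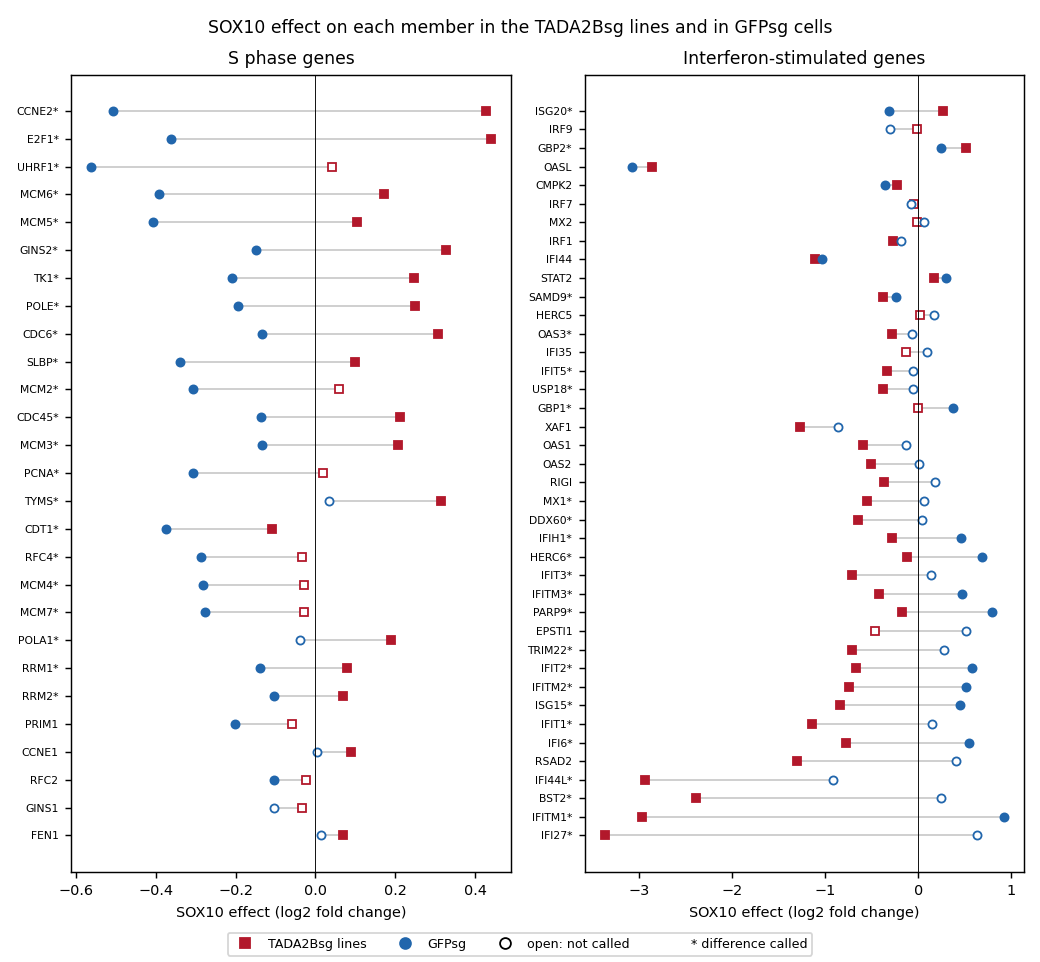
Log2 fold change with SOX10OE of each tested S phase gene (left) and interferon-stimulated gene (right) in the TADA2Bsg lines (red squares) and in GFPsg cells (blue circles), ordered by the interaction; filled symbols were called and 1 interferon gene is not drawn. Nearly all S phase genes lie further right in the TADA2Bsg lines, with CCNE2 and E2F1 on top, whereas most interferon genes lie further left there, with IFITM1 and IFI27 at the bottom.

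Of 24 receptor kinases tested, the interaction was higher for 15 and lower for 3, against 18.1% and 15.1% of all genes, with a median of 0.227. The share of lower calls was thus near that of all genes. ERBB3, the neuregulin receptor, averaged 158 and 107 CPM in the TADA2Bsg lines with SOX10OE against 30.7 and 13.8 CPM without, and 414 CPM in GFPsg with SOX10OE against 354 CPM in GFPsg (interaction 2.44, SE 0.0424). IGF1R, DDR1, FGFR3 and NTRK2, receptors for insulin-like growth factors, collagen, fibroblast growth factors and BDNF, were called in opposite directions: IGF1R had log2 changes of 0.79 and −0.08, DDR1 0.57 and −0.30, FGFR3 0.68 and −0.95, and NTRK2 1.45 and −0.66. EPHB2, an ephrin receptor, fell by 1.34 (SE 0.0358) in the TADA2Bsg lines and had −0.11 (adjusted p = 0.116) in GFPsg cells. EGFR fell by 1.56 in each background, and its interaction was −0.004 (adjusted p = 0.973).

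Of 26 MAPK outputs, 12 were higher and 8 lower in the interaction, against 18.1% and 15.1% of all genes. CCND1, the D-type cyclin, was at 646, 679 and 664 CPM in TADA2Bsg1 with SOX10OE against 444, 444 and 452 CPM in TADA2Bsg1, and at 506, 497 and 516 CPM in TADA2Bsg2 with SOX10OE against 324, 322 and 323 CPM in TADA2Bsg2. CCND1 in GFPsg with SOX10OE was at 884, 852 and 898 CPM, below the 1070 to 1090 CPM of GFPsg. CCND1 therefore rose in the TADA2Bsg lines (log2 change 0.61, SE 0.0176) and fell in GFPsg cells (−0.30, SE 0.0247), with an interaction of 0.91 (SE 0.0304, adjusted p = 8.38e-26). The immediate-early factors EGR1 and EGR2 rose in the TADA2Bsg lines and fell in GFPsg cells, EGR2 at under 1 CPM in both GFPsg groups and with an adjusted p of 0.0497 there. EGR3 rose in the TADA2Bsg lines by 1.67 and was not called in GFPsg cells (−0.03), and the ephrin receptor EPHA4, also on this list, rose by 1.67 (SE 0.0478) with −0.12 (adjusted p = 0.135). PHLDA1, a pleckstrin-homology protein induced by growth factors, went the other way, with −0.82 (SE 0.0244) in the TADA2Bsg lines and 0.21 (SE 0.0343) in GFPsg cells, and the feedback phosphatase DUSP5 and the factor ETV1 followed it at smaller size.

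Targets of YAP and TEAD, the effectors of the Hippo pathway, had a higher interaction at 18 of 25 and a lower one at 2, or 16 and 2 with RLE scaling or library size alone, where 18.1% of all genes were higher and 15.1% lower. The median was 0.25. IGFBP3, which binds insulin-like growth factors, was at 168, 176 and 176 CPM in TADA2Bsg1 with SOX10OE against 53.2, 56.7 and 55.0 CPM in TADA2Bsg1, and at 209, 205 and 215 CPM in TADA2Bsg2 with SOX10OE against 40.7, 40.3 and 41.4 CPM in TADA2Bsg2. In GFPsg with SOX10OE it was at 62.2, 59 and 61.0 CPM, against 96.7, 99.3 and 91.3 CPM in GFPsg. IGFBP3 rose in the TADA2Bsg lines (log2 change 2.01) and fell 1.58-fold in GFPsg cells (interaction 2.67, SE 0.0411, adjusted p = 1.98e-37). The matricellular genes CCN1 and CCN2 and the muscle ankyrin gene ANKRD1 rose in both backgrounds and more in the TADA2Bsg lines, with interactions of 0.62, 1.11 and 1.16. CRIM1, a transmembrane BMP antagonist, fell in GFPsg cells (−0.64, SE 0.0276) and had 0.04 (adjusted p = 0.0519) in the TADA2Bsg lines, and TEAD1 rose in the TADA2Bsg lines (0.49, SE 0.0211) with −0.02 in GFPsg cells.

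Matrix genes, and genes of the AXL-high state that undifferentiated melanoma cells take, were divided. Of 29 genes of that state, 12 had a higher and 10 a lower interaction (18.1% and 15.1% of all genes), and SOX10 lowered 17 in the TADA2Bsg lines and 19 in GFPsg cells (28.1% and 17.2% of all genes). FN1, fibronectin, differed by guide. It averaged 228 ± 6.15 CPM in TADA2Bsg1 with SOX10OE and 219 ± 8.08 CPM in TADA2Bsg1, which overlapped, and 304 ± 12.4 CPM in TADA2Bsg2 with SOX10OE and 171 ± 5.49 CPM in TADA2Bsg2. In GFPsg cells it fell to 228 ± 3.45 CPM with SOX10OE, against 352 ± 12.5 CPM in GFPsg. TGFBI, a TGF-beta-induced matrix protein, fell in the TADA2Bsg lines (−0.68, SE 0.0198) and rose in GFPsg cells (0.39, SE 0.0284), as did the metalloprotease ADAM12 (−0.97, SE 0.0422, and 0.43, SE 0.0566). Of 36 matrix genes, 13 were higher and 12 lower in the interaction, against 18.1% and 15.1% of all genes. TIMP3, a tissue inhibitor of metalloproteases, averaged 565 and 295 CPM in the TADA2Bsg lines with SOX10OE against 222 and 104 CPM without, and 1810 ± 19.1 CPM in GFPsg with SOX10OE against 1860 ± 7.98 CPM in GFPsg (log2 change −0.04, adjusted p = 0.236, without overlap). MMP8, neutrophil collagenase, rose by 4.61 (SE 0.140) and 0.63 (SE 0.0752), and the stromelysin gene MMP3 fell by 4.10 and 0.77.

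Most Schwann and neural crest genes rose with SOX10 in both backgrounds. Of 30 such genes tested, 24 rose and 4 fell in the TADA2Bsg lines, where 28.1% of all genes rose, and 23 rose and 5 fell in GFPsg cells, where 17.3% of all genes rose. The same-direction class held 19 of them, against 9.32% of all genes. The interaction was higher for 19 and lower for 7, against 18.1% and 15.1%. CDH19, a cadherin of Schwann cell precursors, averaged 122 ± 2.19 and 118 ± 3.42 CPM in the TADA2Bsg lines with SOX10OE against 12.7 ± 0.690 and 5.65 ± 0.331 CPM without, and 125 ± 5.05 CPM in GFPsg with SOX10OE against 86.4 ± 2.66 CPM in GFPsg. Its interaction of 3.29 (SE 0.0484) had the smallest p of the list, at an adjusted p of 2.68e-38. POU3F2, a neural POU factor, S100B and the retinoid receptor gene RXRG had interactions of 1.70, 2.10 and 3.27. RXRG averaged 19.8 and 12.7 CPM in the TADA2Bsg lines with SOX10OE against 0.309 and 0.102 CPM without. In GFPsg with SOX10OE it averaged 74.3 CPM, against 8.37 CPM in GFPsg. Averaged over the guides, the rise in CPM of RXRG, and by less of POU3F2 and S100B, was smaller in the TADA2Bsg lines, though the fold was larger. NGFR, the neurotrophin receptor p75 and a marker of neural crest stem cells, was an exception in direction. It averaged 28.4 and 30.2 CPM in the TADA2Bsg lines with SOX10OE against 9.80 and 5.8 CPM without, and 20.7 ± 1.18 CPM in GFPsg with SOX10OE against 26.3 ± 0.568 CPM in GFPsg, log2 changes of 1.96 (SE 0.0459) and −0.34 (SE 0.0592). SNAI2, EGR2 and the crest factor gene TFAP2A were the other members called in opposite directions. The fall of TFAP2A in the TADA2Bsg lines was small and near the threshold (log2 change −0.122, adjusted p = 0.0487, edgeR). GAP43 rose more in GFPsg cells (interaction of −0.87), and SOX9 fell by 3.18 in the TADA2Bsg lines and by 2.25 in GFPsg cells on the log2 scale.

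Of 14 pigmentation genes tested, 3 had a higher and 4 a lower interaction, against 18.1% and 15.1% of all genes. ACP5 shared the pattern of MITF, with −0.89 (SE 0.0425) in the TADA2Bsg lines and 0.54 (SE 0.0675) in GFPsg cells. GPNMB, a melanosome glycoprotein, rose in both, to 202 and 168 CPM in the TADA2Bsg lines with SOX10OE against 91.7 and 83.6 CPM without, and to 330 CPM in GFPsg with SOX10OE against 99.0 CPM in GFPsg (interaction −0.67, SE 0.0332). DCT, an enzyme of melanin synthesis, rose by log2 changes of 7.48 and 7.26, and its interaction of 0.22 was not called (adjusted p = 0.525). OCA2, a melanosomal transporter, rose in the TADA2Bsg lines (3.08) and had 0.37 (adjusted p = 0.24) in GFPsg cells. The melanosomal genes TYR, SLC45A2, SLC24A5 and TRPM1 did not pass the filter on low counts.

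In the NF-kB and cytokine list, 10 of 23 were higher and 6 lower in the interaction, against 18.1% and 15.1% of all genes. TNFAIP3, the deubiquitinating feedback inhibitor A20, averaged 13.7 ± 0.625 and 14.7 ± 0.450 CPM in the TADA2Bsg lines with SOX10OE against 49.9 ± 1.57 and 57.6 ± 0.840 CPM without, and 14.5 ± 0.698 CPM in GFPsg with SOX10OE against 11.6 ± 0.524 CPM in GFPsg. It fell 3.78-fold in the TADA2Bsg lines and rose by 0.32 on the log2 scale (SE 0.0538) in GFPsg cells, with an interaction of −2.23 (SE 0.0637, adjusted p = 3.9e-28). NFKB1, the p50 subunit, rose in the TADA2Bsg lines (0.67, SE 0.0211) with 0.03 in GFPsg cells, and RELB and NFKB2 did likewise (0.53 and 0.23, against −0.03 and −0.02). CXCL1, a neutrophil chemokine, fell in both, by 0.29 in the TADA2Bsg lines and by 1.87 in GFPsg cells, where it stood at 9.81 CPM with SOX10OE against 36.0 CPM in GFPsg. Of the other lists, SAGA subunits had 5 of 24 higher and 5 lower, near the shares of all genes. KAT2B, one of the 2 alternative acetyltransferases of SAGA, rose in both backgrounds, to 99.2 and 67.3 CPM in the TADA2Bsg lines with SOX10OE against 36.4 and 32.8 CPM without, and to 175 CPM in GFPsg with SOX10OE against 38.3 CPM in GFPsg (interaction −0.95, SE 0.0465, adjusted p = 3.93e-20). Its paralogue KAT2A fell in the TADA2Bsg lines by 0.27 and had −0.03 in GFPsg cells, and USP22, the deubiquitinase of the complex, was called in opposite directions at 0.13 and −0.08. Cholesterol synthesis genes had 3 of 22 higher and 4 lower, also near those shares. Stress response genes had 5 of 23 higher and 9 lower, against 18.1% and 15.1% of all genes, with ATF3 at 0.48, SESN2 at −0.42 and PSAT1 at −0.43.

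Markers of other cell types moved at some members. Of 10 fibroblast markers tested, 1 had a higher interaction and 3 a lower one, against 18.1% and 15.1% of all genes. POSTN, periostin, was at 1.18 to 1.83 CPM in the TADA2Bsg lines with SOX10OE and 2.15 to 3.42 CPM without, and at 3.08, 2.69 and 2.75 CPM in GFPsg with SOX10OE against 0.194, 0.163 and 0.138 CPM in GFPsg (interaction −4.97, SE 0.304, adjusted p = 7.03e-20). SOX10 lowered 7 of the 10 and raised 3 in the TADA2Bsg lines (median −0.868; 28.1% of all genes each way). It lowered 1 and raised 5 in GFPsg cells (median 0.418; 17.2% and 17.3% of all genes). The summed level of the 10 ran from 52.2 to 62.4 CPM in the TADA2Bsg lines with SOX10OE, from 43.4 to 53.2 CPM in those without, from 17.2 to 18.4 CPM in GFPsg with SOX10OE and from 8.25 to 10.5 CPM in GFPsg. LUM alone, which rose in both backgrounds, held 37.3 and 43.3 CPM in the TADA2Bsg lines with SOX10OE and 21.9 and 23.3 CPM without. The sum there therefore mainly follows LUM. COL1A2 did not pass the filter. Of 10 keratinocyte or epithelial markers, 4 had a higher interaction and 0 a lower one (18.1% and 15.1% of all genes), with summed levels of 335 to 403, 384 to 430, 171 to 174 and 201 to 202 CPM in the same order. SOX10 raised 4 and lowered 6 of these 10 in the TADA2Bsg lines (28.1% of all genes each way). It raised 2 and lowered 6 in GFPsg cells (17.3% and 17.2% of all genes). Those lowered in the TADA2Bsg lines were KRT5, KRT8, KRT18, EPCAM, CLDN4 and SFN. KRT14, a basal keratin, was among those raised there. It averaged 4.30 and 4.60 CPM in the TADA2Bsg lines with SOX10OE against 1.18 and 0.368 CPM without, and 3.58 CPM in GFPsg with SOX10OE against 5.41 CPM in GFPsg. The interaction calls of CLDN4 and JUP were lost with guide 1 alone (adjusted p = 0.426 and 0.553, edgeR), and that of CLDN4 also when some single libraries were left out. CDH1 and KRT19 did not pass the filter. Of 5 leukocyte markers tested, 1 had a higher interaction and 0 a lower one (18.1% and 15.1% of all genes). That was LYZ, the lysozyme gene, called in opposite directions (1.52, SE 0.0498, and −0.61, SE 0.0771). SOX10 raised 2 and lowered 2 in the TADA2Bsg lines (28.1% of all genes each way), and raised 0 and lowered 3 in GFPsg cells (17.3% and 17.2%). CD3D and ITGAM fell in the TADA2Bsg lines (−2.56 and −2.64), at means of at most 0.397 and 0.183 CPM in any group. PTPRC, the pan-leukocyte marker, averaged at most 0.119 CPM in any group. CD3E, MS4A1, NKG7, FCGR3A and CD68 did not pass the filter. In bulk samples a lower count of cells of a type and less RNA per cell cannot be told apart, and the part of other cells in the results was not tested. Melanoma identity markers were present in every group, SOX10 itself among them. Their summed levels were 348 to 428 CPM in the TADA2Bsg lines with SOX10OE and 159 to 205 CPM in those without. The sums were 614 to 620 CPM in GFPsg with SOX10OE and 433 to 456 CPM in GFPsg. SOX10 alone averaged 291 and 246 CPM in the TADA2Bsg lines with SOX10OE and 83.6 and 43.4 CPM without. It averaged 452 CPM in GFPsg with SOX10OE and 354 CPM in GFPsg, so the sums largely follow the overexpressed gene. MLANA, a melanocyte antigen, averaged 0.791 to 1.16 CPM in all groups, and TYR did not pass the filter. Of 13 mitochondrially encoded transcripts, 0 had a higher interaction and 1 a lower one (18.1% and 15.1% of all genes). The member called was MT-ND3 (−0.52, SE 0.0934).

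**Figure D5:**
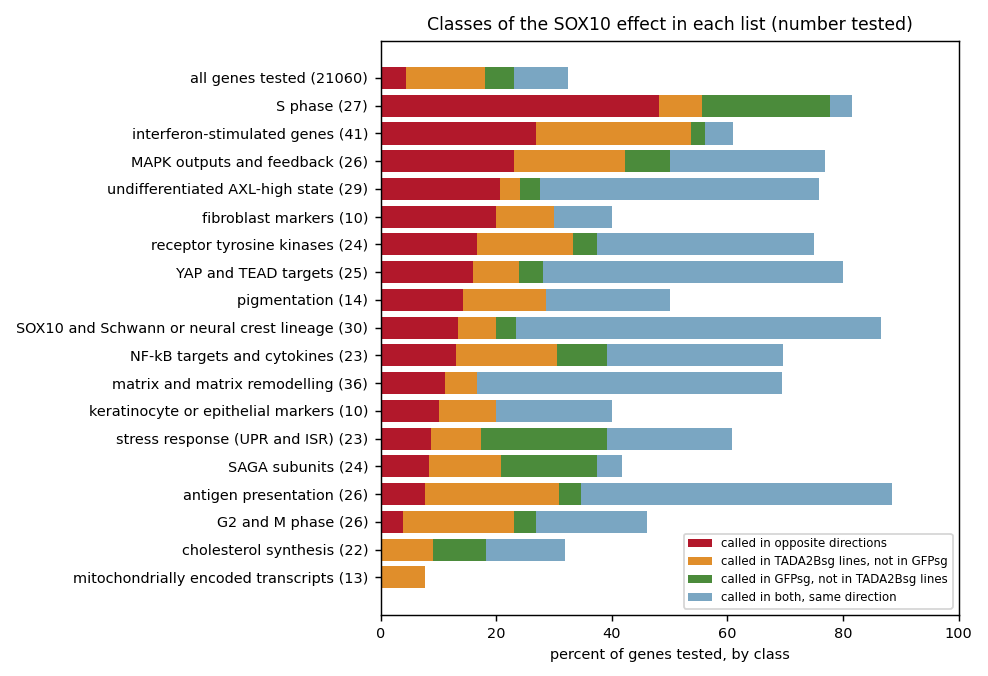
Percent of the tested genes of each list, and of all genes (top), in each class of the SOX10 effect, with the number tested in parentheses. The opposite class takes 4.41% of all genes and 13 of 27 S phase genes, and the same-direction class takes 19 of 30 genes of the Schwann lineage list.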

How the data were processed

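Raw gene counts of 18 libraries came as 1 table from the authors. HISAT2, HTSeq and hg38 are named per the submitters' processing notes. Versions, the annotation and the strand setting are not stated there, so overlapping and antisense genes cannot be told apart. Libraries were made with a stranded mRNA kit, per the labels. All 58721 identifiers match GENCODE 29, which gave the coordinates, and 58252 had a symbol. From the counts, 21060 genes passed filterByExpr and were fitted with edgeR 4.0.16 in R 4.3.3 (TMM, robust quasi-likelihood, 6 group means, 12 residual degrees of freedom, two-sided tests, Benjamini-Hochberg adjustment, threshold 0.05), a method tested on simulated data. The common biological coefficient of variation was 4.02%. Total counts were 58573910 to 79874237 per library, which sets the counting error. CPM are TMM-scaled.

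Genes, lists and rules were chosen with earlier results of these data known. Genes named by class were protein-coding, had an interaction called with the same sign for each guide, at least 10 counts in each group and a mean of at least 1 CPM in 1 group. Of these, the 6 of each sign with the largest smaller effect were taken from the opposite class, 5 of each sign with the largest interaction from each single-background class (effect in the other background within 1.5-fold), and 3 of each kind from the same-direction class. From each list, up to 4 members with the smallest interaction p were named whether or not they met these conditions, and SOX10 and TADA2B always. Other list members are named as counted. The alternatives used limma 3.58.1 and DESeq2 1.42.0 as well. The promoters of MITF and PARP9 and the difference on the CPM scale were added after the values were seen. Some list members are counted but their values are not reported here.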

Additional observations from a re-analysis of the deposited data

Results flagged for a closer look

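The SOX10 effect differed between the TADA2Bsg lines and GFPsg cells in 7005 genes, by the interaction test described in the report. It also differed between TADA2Bsg2 and TADA2Bsg1 in 528 genes (2.51%), 372 higher and 156 lower with guide 2, and 437 of these were among the genes with a called interaction (6.24% of them). In the class of opposite responses 100 genes (10.8%) differed between the guides.

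The SOX10 effect was larger with guide 2 than with guide 1 at SOX10 itself, by 0.70 on the log2 scale, and the starting level of SOX10 was lower with guide 2. Guide 2 minus guide 1 was 0.63 for CALB2, 1.26 for HECW2, 1.24 for TDRD6 and 0.78 for IL1A among the genes with opposite responses. It was 0.62 for ABCA13, 0.70 for FGF13, 1.17 for OPRD1, 1.21 for SPTBN5 and −0.57 for PRRX1 among those called in the TADA2Bsg lines alone, and 0.90 for KDR and 1.14 for FAT3. At each of these genes both guides gave the same direction. The part of the SOX10 level in the difference between guides was not tested.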

How the results depend on the processing

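The main counts were 3818 genes with a higher and 3187 with a lower interaction, 929 with opposite responses, 2870 called in the TADA2Bsg lines alone and 1073 in GFPsg cells alone. Leaving out each library in turn gave 3413 to 4033, 2752 to 3239, 766 to 1010, 2676 to 2887 and 897 to 1112. Asking for a change of at least 1.5-fold left 82 opposite genes, 754 called in the TADA2Bsg lines alone and 225 in GFPsg cells alone, by construction. DESeq2 gave 3627 higher and 3454 lower with 913 opposite, limma-trend 3869 and 3418 with 923, RLE scaling 3595 and 3420 with 892, and library size alone 3589 and 3438 with 896. Guide 1 alone gave 724 opposite genes and guide 2 alone 833. The share of higher calls was 54.5% with TMM and 51.1% to 51.2% with the other scalings. Deviations of same-numbered libraries correlated at a median r of 0.0834 (45 pairs, −0.271 to 0.386, 19 over 0.1), against −0.0312 for different numbers (90 pairs, 11 over 0.1). Same-numbered pairs were thus over 0.1 more often, though not in every case. The main fit did not pair libraries by number, and whether the numbers mark a shared batch was not tested. A fit with the replicate block gave 3920 higher and 3293 lower with 993 opposite. Of 3041 values recomputed for 113 named genes over 27 alternatives, 3029 stayed on their side of the threshold with no called direction turned, 10 were no longer called (CLDN4, JUP and DCN), 1 became called (MT-ND2) and 1 was called with the other sign. That was CD3D, at −1.90 with limma-trend against 0.22, not called, with edgeR; its level is 0 or near 0 in GFPsg cells, and the cause was not tested. FDFT1 moved to the opposite class under the other scalings. Genes under about 1 CPM are limited by depth.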
